A study of Mus musculus with 16 samples.

Results

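Nkg7, the granzymes Gzma, Gzmb, Gzmc and Gzmk, the pore protein gene Prf1 and the natural killer (NK) type receptors Klrd1 and Klrk1 were followed across mouse CD4+ T cells with and without STAT3. They are 8 of the 18193 mouse genes on the array, read by 9 of its 34945 probe sets that carry exactly 1 gene symbol, of 45101 probe sets in all. The genes were chosen by name from results of these same 16 arrays, on their differences between genotypes and between cytokine conditions. Their levels are therefore given as a description with no test. Of the 8 genes, 7 reached the level minimum used for the tests of other genes, a log2 intensity of 6 on at least 2 arrays, and Gzmc, which reached it on 1 array, did not.

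Each array held RNA of sorted naive CD4+ cells, CD44- and CD62L+, that were stimulated through CD3 and CD28 and cultured for 3 days. The 4 conditions were medium, IL-6 (10 ug/ml as labelled), TGFb (2.5 ug/ml as labelled), and IL-6 with TGFb at those doses, the combination known to induce IL-17 producing T helper cells. The wild-type (WT) cells were STAT3floxed and carried no Cre, and the STAT3-deficient cells were CD4 Cre; STAT3floxed, so that all 8 groups shared the floxed allele and the deletion rested on Cre driven by CD4. Every group had 2 arrays. The labels do not say which animals the replicates came from, but sex-linked genes differed between replicates 1 and 2 in every group. The p-values cover the spread between these arrays.

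Cytotoxic lymphocytes kill by releasing granules that hold perforin, which opens the target's membrane, and granzymes, serine proteases that enter and cleave proteins of the target cell. NKG7 is a membrane protein of those granules. CD94 (Klrd1) pairs with NKG2 proteins into a receptor for a nonclassical MHC molecule, and NKG2D (Klrk1) is an activating receptor for stress-induced ligands. CD4+ T cells can acquire parts of this programme, and STAT3 carries the IL-6 signal to the nucleus.

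The 250 bases before the annotated start of 4 members are shown because the genotype and cytokine differences described below turn on these genes, and their promoters hold different matches to 4 short motifs. The sequences are RefSeq's for the mouse build GRCm38.p6, in which 7 of the 8 members had an entry (all but Klrd1). They run 5′ to 3′ along the gene's strand, and capitals mark motif matches on either strand. Nkg7 lies on the plus strand (chr7:43436888-43437137), and Gzma (chr13:113100982-113101231), Gzmb (chr14:56262335-56262584) and Gzmk (chr13:113180966-113181215) on the minus strand.
Nkg7: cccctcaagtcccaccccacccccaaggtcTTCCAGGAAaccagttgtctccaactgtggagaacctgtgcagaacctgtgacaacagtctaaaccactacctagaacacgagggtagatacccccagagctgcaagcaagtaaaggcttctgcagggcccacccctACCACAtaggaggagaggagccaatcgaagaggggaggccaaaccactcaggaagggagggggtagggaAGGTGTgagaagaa
Gzma: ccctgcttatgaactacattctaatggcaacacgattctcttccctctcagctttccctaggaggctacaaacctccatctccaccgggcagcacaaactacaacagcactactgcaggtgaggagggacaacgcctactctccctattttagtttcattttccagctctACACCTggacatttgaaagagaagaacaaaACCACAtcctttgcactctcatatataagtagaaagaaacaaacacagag
Gzmb: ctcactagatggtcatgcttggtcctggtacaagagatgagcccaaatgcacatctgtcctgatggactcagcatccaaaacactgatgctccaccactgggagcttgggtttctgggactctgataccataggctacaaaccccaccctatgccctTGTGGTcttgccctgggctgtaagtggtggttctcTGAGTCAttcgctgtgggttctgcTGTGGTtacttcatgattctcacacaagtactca
Gzmk: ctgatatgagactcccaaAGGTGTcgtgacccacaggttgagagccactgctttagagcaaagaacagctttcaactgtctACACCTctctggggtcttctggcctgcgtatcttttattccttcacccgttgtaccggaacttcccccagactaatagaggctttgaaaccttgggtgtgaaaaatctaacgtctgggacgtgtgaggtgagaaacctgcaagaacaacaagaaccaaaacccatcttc
Counted from the start site, Nkg7 had a STAT motif (TTCNNNGAA) at -220 to -212, a RUNX motif (TGTGGT) at -83 to -78 and a T-box motif (AGGTGT) at -14 to -9. Gzma had a T-box match at -80 to -75 and a RUNX match at -50 to -45. Gzmb had RUNX matches at -93 to -88 and at -34 to -29, with an AP-1 motif (TGANTCA) at -58 to -52. Gzmk had T-box matches at -232 to -227 and at -169 to -164. None of these matches overlapped another. Of 32851 promoters of this length, 7.02% held the STAT motif, 6.75% the AP-1 motif, 14.0% the RUNX motif and 11.8% the T-box motif. Among the promoters not shown, that of Prf1, a gene that stayed near the level minimum, held a RUNX and a T-box match as Gzma did. Those of Gzmc and Klrk1 held RUNX matches alone. A match is a description of letters and not a measured site, and its relation to the levels was not tested.

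The labels were checked before the members were read. Stat3, at its brightest probe set, was between log2 8.4 and 10.46 on the 8 STAT3-deficient arrays and between 10.22 and 12.18 on the 8 WT arrays. Its difference, STAT3-deficient minus WT, was -3.1 under IL-6 (limma adjusted p = 0.0224) and -2.72 under IL-6 with TGFb (limma adjusted p = 0.05, on the threshold, and 0.0052 with the replicate number as a block). It was -2.52 under TGFb and -2.05 in medium, each with a standard error (SE) of 0.58 and a limma adjusted p of 1. The IL-6 call was lost without any 1 of its 4 arrays (adjusted p = 0.0502 to 0.105, against 0.00285 to 0.0279 over the alternatives other than leaving out 1 array). Il17a, the defining cytokine of the IL-6 with TGFb culture, read 10.16 and 11.58 on the WT arrays of that condition. It read 9.55 on the array labelled STAT3-deficient TGFb replicate 1, which had no IL-6, and 5.95 to 6.51 on the other 13 arrays. That array and its partner had the lowest correlation over genes (0.91, against 0.94 to 0.98 for the other groups), which cannot tell which of them departs. The array nearest to replicate 1 was STAT3-deficient IL-6 with TGFb replicate 1 (0.96). The partner, STAT3-deficient TGFb replicate 2, had the highest Stat3 reading without STAT3 (10.46), and was nearest to WT TGFb replicate 2 (0.99). STAT3-deficient TGFb replicate 1 and STAT3-deficient IL-6 with TGFb replicate 1, the doubted arrays, were left out together as an alternative. The labels were kept, and whether these arrays had been exchanged was not tested. Leaving them out does not cover an exchange. The TGFb array read 8.61 for Nkg7, 6.13 for Gzmk and 6.25 for Klrd1, and the combination array 11.71, 7.46 and 8.82. An exchange would thus make the Nkg7 and Gzmk differences under the combination smaller and that of Klrd1 larger. The main differences that rest on them are given with and without them. STAT3-deficient TGFb values without the doubted array rest on replicate 2 alone. On the array labelled WT TGFb replicate 1, Foxp3, the regulator induced by TGFb, read 4.81, against 9.99 on its partner.

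Most markers of other cells were low. All 9 T cell markers measured passed log2 8, none of the 2 CD8 markers did (highest 7.43), and of 6 NK cell markers Eomes alone did (highest 8.34). The other 5, Ncr1, Klra8, Klra1, Tyrobp and Klrc2, reached at most 5.81. Of 6 B cell markers Ighm passed, at 9.49 to 11.94 over the 16 arrays, of 10 myeloid markers Mpeg1 (highest 8.15), and none of 6 mast cell or 3 gamma delta and NKT cell markers did. In bulk RNA, fewer cells of a type and less RNA per cell cannot be told apart.

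Nkg7 was at its lowest in WT cells given IL-6 with TGFb and at its highest in STAT3-deficient cells under the same cytokines. The WT arrays (replicates 1 and 2) read log2 8.1 and 10.56 in medium, 8.59 and 10.06 under IL-6, 10.49 and 9.49 under TGFb, and 6.52 and 6.93 under IL-6 with TGFb. The STAT3-deficient arrays read 9.02 and 11.11 in medium, 11.75 and 11.34 under IL-6, 8.61 and 10.63 under TGFb, and 11.71 and 12.85 under IL-6 with TGFb. Both WT arrays of the combination lay below every other array, and the 4 STAT3-deficient arrays with IL-6 lay above all the rest.

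Under IL-6 with TGFb the mean of STAT3-deficient cells was 46.9-fold higher, a log2 difference of 5.55 (SE 0.94, n = 2 per group), with 5.19 and 5.92 within replicate numbers. Without the doubted arrays it was 6.12. The genotypes did not overlap under IL-6 alone either, where the difference was 2.22 or 4.65-fold. In medium (0.74) and under TGFb (-0.37) they overlapped, and under TGFb the replicates went opposite ways (-1.88 and 1.14). The TGFb difference turned to 0.64 without the doubted array. Against medium, the combination was lower in WT cells by 6.08-fold (log2 -2.6) and higher in STAT3-deficient cells by 4.63-fold (log2 2.21), or by 6.87-fold (log2 2.78) without the doubted array. Set against TGFb alone, cultures that also had IL-6 differed by -3.27 in WT cells and by 2.66 in STAT3-deficient cells. The last value rests on both doubted arrays and was 2.22 without them. IL-6 alone left the WT mean at the level of medium (0), with replicate differences of 0.49 and -0.5.

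Of the groups of Nkg7 ordered by mean, WT IL-6 with TGFb (6.73) stood apart from its neighbour, and the 5 groups from WT medium to STAT3-deficient medium (9.33 to 10.07) overlapped one another. STAT3-deficient IL-6 (11.54) and IL-6 with TGFb (12.28) stood above these and overlapped each other. Under the combination the summed level of the NK cell markers was 8.04 to 8.71 in STAT3-deficient and 7.47 to 7.63 in WT cells. Eomes there read 7.23 and 8.23 against 6.44 and 6.13. In WT cells the sum was 7.3 to 7.9 under IL-6 and 7.54 to 8.77 under TGFb, where mean Nkg7 was 9.33 and 9.99. In the same comparison of genotypes the summed B cell markers were 11.67 to 12.04 against 10.62 to 10.88, and the CD8 markers 7.86 to 7.92 against 7.62 to 7.86. Gamma delta and NKT cell markers were 8.03 to 8.28 against 7.82 to 7.9, and myeloid markers 9.35 to 9.48 against 9.25 to 9.32. T cell markers were lower, at 15.13 to 15.16 against 15.23 to 15.24, and mast cell markers overlapped. Their part in the result was not tested, and the 5 NK markers other than Eomes were near background as given above.

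**Figure D1:**
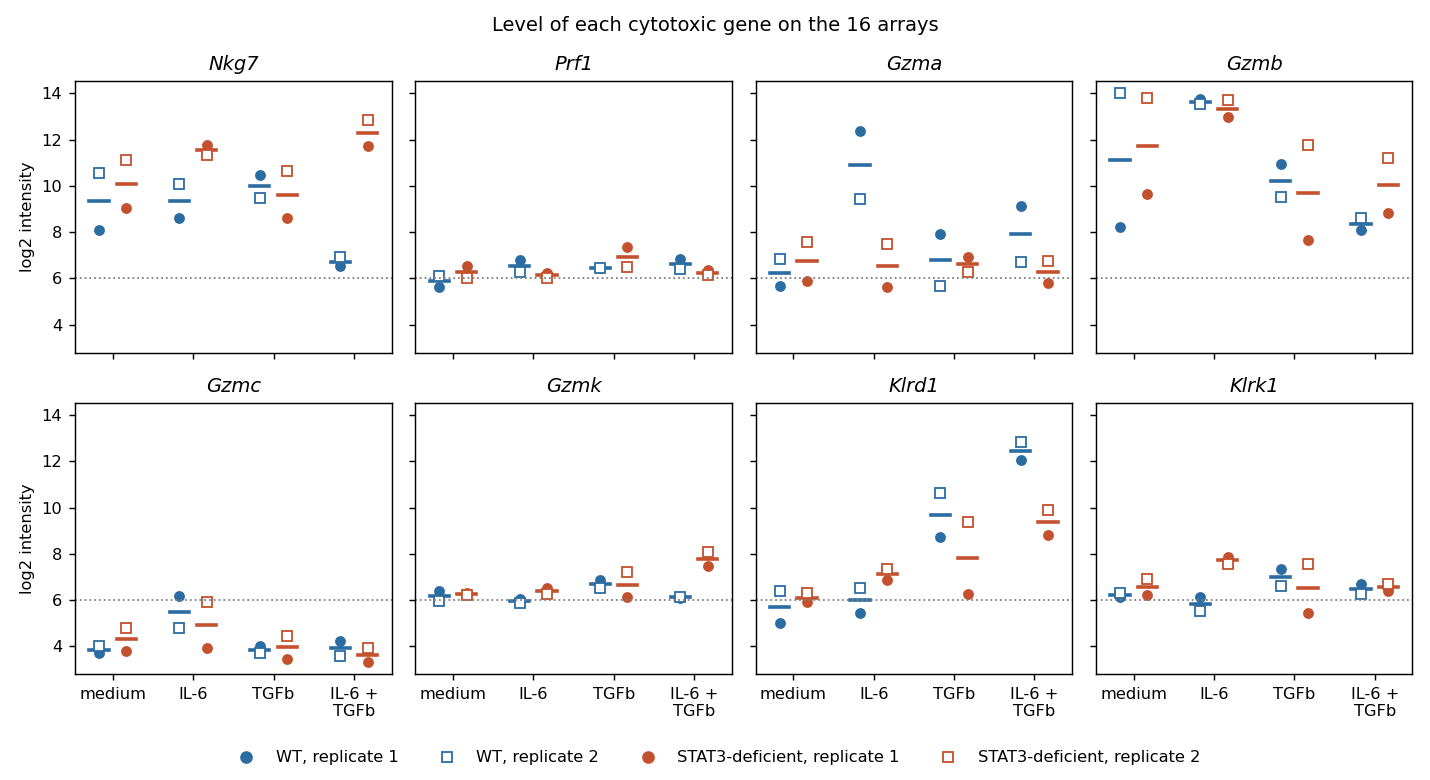
Log2 intensity of the members on each of the 16 arrays, by cytokine condition, with WT and STAT3-deficient arrays in separate colours. Filled circles and open squares are replicates 1 and 2, short lines are means of 2 arrays, and the dotted line is the level minimum, log2 6. Under IL-6 with TGFb Nkg7 reads 11.71 and 12.85 without STAT3 and 6.52 and 6.93 with it. Klrd1 there reads 8.82 and 9.92 without STAT3 and 12.06 and 12.85 with it.

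Prf1, which encodes perforin, stayed near the level minimum. Its brighter probe set ran from log2 5.64 to 7.34 over the 16 arrays and the other from 5.67 to 6.79. The probe sets went opposite ways between genotypes under IL-6 with TGFb, where the difference was -0.38 at the brighter and 0.2 at the other. They also parted in WT cells between the combination and medium, with 0.74 and -0.13. The highest Prf1 reading, 7.34, came from STAT3-deficient TGFb replicate 1, a doubted array. Under IL-6 both probe sets read lower without STAT3, by -0.39 and -0.13 on the log2 scale.

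Gzma, the tryptase granzyme, was high in WT cells given IL-6 without TGFb. WT arrays read log2 5.67 and 6.82 in medium, 12.37 and 9.42 under IL-6, 7.91 and 5.67 under TGFb, and 9.14 and 6.7 under the combination. The STAT3-deficient arrays read 5.88 and 7.58, 5.61 and 7.47, 6.91 and 6.29, and 5.81 and 6.75 in the same order. Thus both WT arrays with IL-6 alone stood above every other array, and no STAT3-deficient array passed 7.58.

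In WT cells IL-6 minus medium was 4.65 on the log2 scale, 25.1-fold (SE 1.13, n = 2 per group), with 6.69 and 2.6 within replicate numbers. In STAT3-deficient cells the same difference was -0.19. Between genotypes under IL-6, Gzma was 20.4-fold lower without STAT3 (log2 -4.35, with -6.75 and -1.95 within replicates). Adding TGFb to IL-6 went with a level 7.85-fold lower in WT cells (log2 -2.97). Under the combination the genotypes overlapped, at -3.33 in replicate 1 and 0.05 in replicate 2, with a mean difference of -1.64, or -1.17 without the doubted array. The size of these differences varied between replicates by several log2 units, while the direction of the IL-6 differences was shared.

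Gzmb, the aspartate-cleaving granzyme, was high under IL-6 alone in both genotypes and spread widely between replicates in medium. In WT cells it read log2 8.2 and 14.0 in medium, 13.76 and 13.52 under IL-6, 10.95 and 9.5 under TGFb, and 8.09 and 8.6 under IL-6 with TGFb. The STAT3-deficient arrays gave 9.65 and 13.79 in medium, 12.98 and 13.71 under IL-6, 7.67 and 11.75 under TGFb, and 8.82 and 11.22 under the combination. The replicates of medium differed by 5.8 in WT cells, a gap exceeded by 4 of the 13007 genes tested, and by 4.14 in STAT3-deficient cells, exceeded by 12. Means of medium are therefore of little use for this gene.

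The comparison of IL-6 with and without TGFb did not use medium. There Gzmb was 39.2-fold lower with TGFb in WT cells (log2 -5.29, SE 1.84, n = 2 per group) and 10-fold lower in STAT3-deficient cells (log2 -3.33), and neither pair of groups overlapped. Without the doubted array the STAT3-deficient value was 4.37-fold (log2 -2.13). The difference between these changes was not tested. Between genotypes Gzmb overlapped under IL-6 (-0.29), under TGFb (-0.52, or 1.52 without the doubted array) and in medium (0.62). Under IL-6 with TGFb the STAT3-deficient arrays stood above the WT arrays by 1.67 (SE 1.84, or 1.44 with the replicate number as a block), with 0.73 and 2.61 within replicates and 2.87 without the doubted arrays.

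Gzmk, another tryptase, was close to the level minimum on most arrays and higher in STAT3-deficient cells under the combination. Under IL-6 with TGFb it read log2 7.46 and 8.07 without STAT3, against 6.11 and 6.13 with it. The other WT arrays read 6.38 and 5.98 in medium, 6.04 and 5.86 under IL-6, and 6.87 and 6.51 under TGFb. The other STAT3-deficient arrays read 6.32 and 6.23, 6.52 and 6.27, and 6.13 and 7.2. The genotype difference under the combination was 1.64 or 3.13-fold (SE 0.32, n = 2 per group), with 1.35 and 1.94 within replicates and 1.95 without the doubted arrays. Against medium the combination differed by 1.49 in STAT3-deficient cells (1.79 without the doubted array) and by -0.06 in WT cells. Both STAT3-deficient arrays of the combination were above all 14 others.

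Gzmc, a granzyme whose gene neighbours Gzmb, was near background. It ran from log2 3.32 to 6.19, and its highest readings were 6.19 on WT IL-6 replicate 1 and 5.91 on STAT3-deficient IL-6 replicate 2. The WT IL-6 arrays (6.19 and 4.81) did not overlap those of WT medium (3.7 and 4.0). At this signal the array gives no usable ratio for Gzmc.

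**Figure D2:**
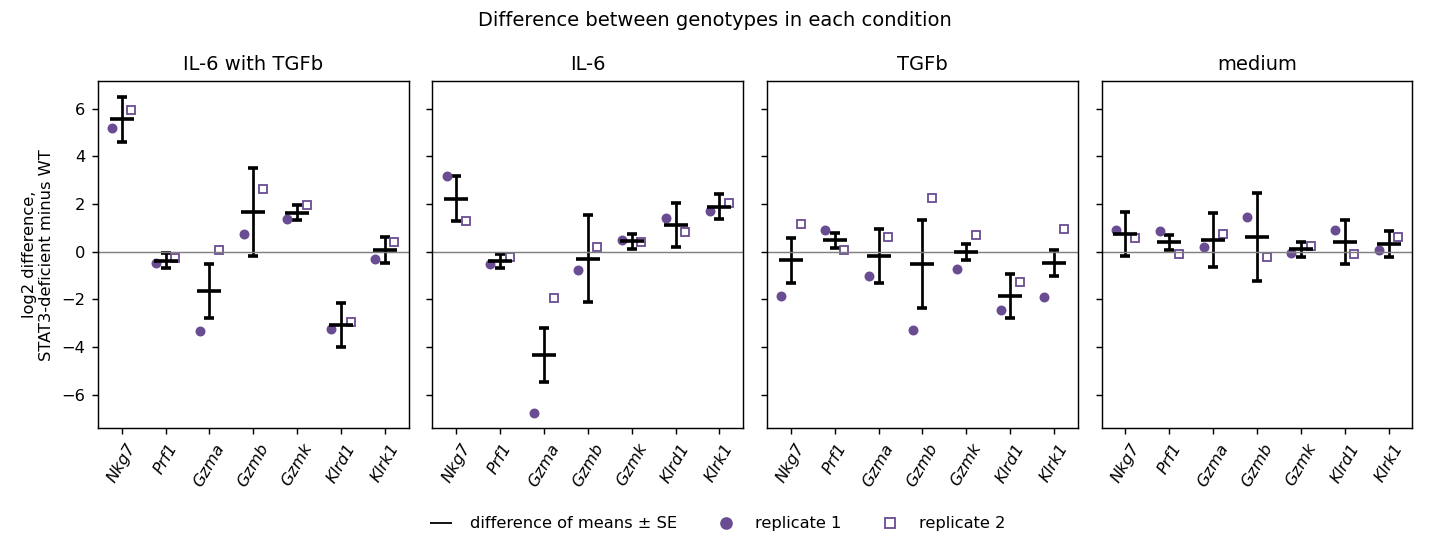
Difference of log2 means, STAT3-deficient minus WT, for each member that reached the level minimum in each of the 4 conditions. Dashes with bars are differences of means of 2 arrays with the standard error of the fit, and filled circles and open squares are the differences within replicates 1 and 2. Nkg7 (5.55) and Gzmk (1.64) lie above 0 and Klrd1 (-3.08) below it under IL-6 with TGFb, and Gzma (-4.35) lies below 0 under IL-6.

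Klrd1, which encodes CD94, was highest where Nkg7 was lowest, though over the 16 arrays they had a Pearson's r of -0.22 (Spearman's rho 0.1). In WT cells it read log2 5.0 and 6.38 in medium, 5.46 and 6.54 under IL-6, 8.71 and 10.64 under TGFb, and 12.06 and 12.85 under IL-6 with TGFb. The STAT3-deficient arrays read 5.91 and 6.29, 6.86 and 7.36, 6.25 and 9.38, and 8.82 and 9.92 in the same order. Both WT arrays of the combination were above all others, and the STAT3-deficient arrays of the combination stood below them and above those of medium and IL-6.

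Against medium, Klrd1 in WT cells was 109-fold higher under the combination (log2 6.77, SE 0.92, n = 2 per group) and 15.9-fold higher under TGFb (3.99). Under IL-6 it was 0.31 higher, and the arrays overlapped. The WT medium mean, 5.69, lay below the level minimum, so the folds against it are rough. The TGFb value was 4.95 without WT TGFb replicate 1, the array with low Foxp3. In STAT3-deficient cells the combination was 9.68-fold higher than medium (3.27, or 3.82 without the doubted array) and TGFb was higher by 1.72, or by 3.29 with the doubted arrays left out. IL-6 alone was higher by 1.01 in these cells with no overlap. Between genotypes Klrd1 was 8.47-fold lower without STAT3 under the combination (-3.08, with -3.24 and -2.93 within replicates and -2.54 without the doubted arrays). Under TGFb the difference of -1.86 came with overlapping arrays, and with -2.46 and -1.26 within replicates. It was -0.29 without the doubted array, a value that sets STAT3-deficient replicate 2 against the mean of both WT arrays. IL-6 added to TGFb went with a level higher by 2.78 in WT cells (3.35 and 2.2 within replicates), a value that includes the array with low Foxp3. In STAT3-deficient cells that difference was 1.56 with overlapping arrays, or 0.54 without the doubted arrays. Under IL-6 alone the genotypes did not overlap, and Klrd1 was higher without STAT3 by 1.11 (1.4 and 0.82 within replicates).

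Klrc1 and Klre1, which encode lectin-like receptor chains that pair with CD94 or a related chain, are no members and were tested. Klrc1 read log2 7.27 and 8.85 in WT cells under the combination, 5.13 and 6.81 under TGFb, and 3.81 to 4.64 in WT medium and IL-6. In STAT3-deficient cells it read 5.83 and 5.64 under the combination. Klre1 read 7.55 and 7.19 on the WT arrays of the combination and 5.09 to 5.61 on the other 14 arrays. Klre1 thus passed the level minimum through that group alone, so its calls are given from the fit with no level minimum, over all 18193 genes. Over the 16 arrays Klrd1 and Klrc1 correlated with r = 0.96.

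**Figure D3:**
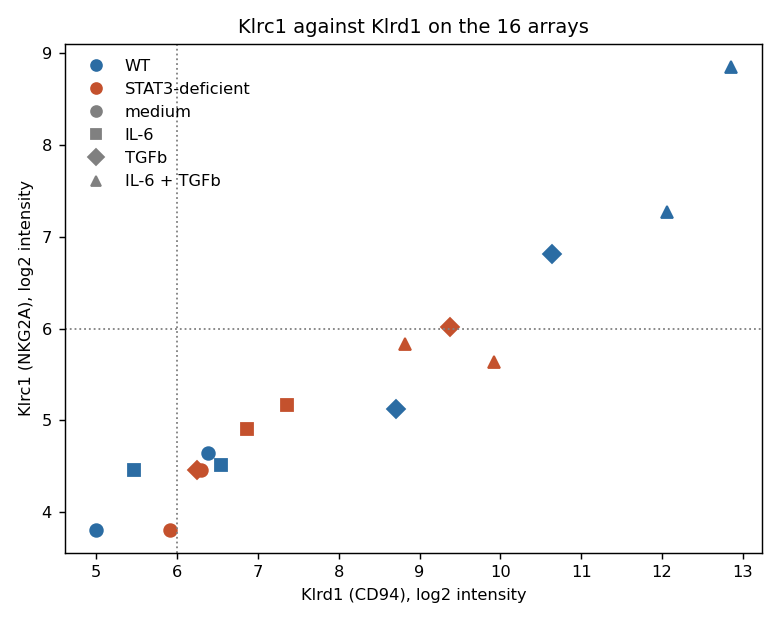
Log2 intensity of Klrc1 (vertical axis) against Klrd1 (horizontal axis) on the 16 arrays, with colours for genotype, symbols for condition and dotted lines at log2 6. The 2 WT arrays under IL-6 with TGFb, at 12.06 and 12.85 for Klrd1, sit at the upper right, and arrays of medium and IL-6 sit at the lower left (r = 0.96, n = 16, a description).

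Klrk1, which encodes NKG2D, was higher in STAT3-deficient cells under IL-6 alone. Under IL-6 it read log2 7.85 and 7.58 without STAT3, against 6.13 and 5.52 with it, a difference of 1.89 or 3.69-fold (SE 0.54, n = 2 per group) with 1.72 and 2.05 within replicates. With STAT3 it read 6.15 and 6.32 in medium, 7.36 and 6.61 under TGFb, and 6.7 and 6.27 under the combination. Without STAT3 it read 6.21 and 6.93, 5.46 and 7.56, and 6.41 and 6.69 in the same order. The genotypes overlapped in those 3 conditions. Under TGFb the difference was -0.48, and 0.58 without the doubted array. Klrk1 and Klrd1 were thus both higher without STAT3 under IL-6 alone, and under the combination Klrd1 was lower while Klrk1 overlapped.

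The members did not follow 1 pattern over the arrays. Pearson's r over 16 arrays was 0.61 between Nkg7 and Gzmk, 0.55 between Nkg7 and Gzmb, and -0.41 between Klrd1 and Gzmb. These values and those that follow are descriptions with no p, since arrays share genotype, condition and replicate number. The 3 tested genes most like each member by r were Tnf (0.86), Adgre5 (0.86) and Eno3 (0.84) for Nkg7, and Cysltr2, Glipr2 and Oxsr1 (0.89 each) for Gzma. For Gzmb they were Gimap7 (0.95), Fam71b (0.9) and Serpinb6b (0.9), the last of which encodes a serine protease inhibitor. For Gzmk they were Car2 (0.91), Ikzf2 (0.86) and Cdh1 (0.86), and for Prf1 Myo1h (0.9), Acp2 (0.86) and Trp53inp2 (0.86). Klrd1 was followed by Klrc1 (0.96), Prg4 (0.95) and Cldnd1 (0.94), and Klrk1 by Tmed5 (0.83), Lpgat1 (0.82) and Bst2 (0.82).

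The wider cytotoxic programme was read from a list of 74 other genes: granule proteins and their release, death ligands, cytokines and chemokines, receptors, and regulators. Of these, 67 had a probe set and 50 reached the level minimum and were tested with limma among all 13007 genes, with Benjamini-Hochberg adjustment over all of them and a threshold of 0.05. Each count is set beside the share of all genes called in that direction and comparison.

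Between genotypes under IL-6 with TGFb, none of the 50 genes passed the threshold upward, and Klre1 passed it downward by -2.07. Klre1 was among the 50 only through the WT arrays of this condition, so its place in the count is tied to the level minimum. With no level minimum its limma adjusted p was 0.00168. Over the alternatives other than leaving out 1 array it ran from 0.00101 to 0.0212, mostly from fits that kept the level minimum. Over all genes 0.208% were called higher and 0.984% lower, and the median difference was 0.02 in the list and 0.01 over all genes. By role the median difference was 1.66 over 9 ligand genes, 0.1 over 12 receptor genes, -0.2 over 17 granule genes and -0.17 over 12 regulators. At an unadjusted p under 0.05 limma gave 15 of 50 list genes and 1314 of 13007. Without either WT array of the combination Klre1 missed the level minimum and the list had 0 calls. With the replicate number as a block, 6 genes rose and 3 fell (all genes 0.507% and 1.97%). The 6 were the chemokines Xcl1 (5.25) and Ccl3 (3.28), the death ligands Fasl (2.79) and Tnfsf10 (1.66), the receptor Cd96 (2.18) and the cytokine Tnf (1.15), and Klrc1 (-2.32) and the granule membrane protein Lamp2 (-1.17) joined Klre1. The limma adjusted p of these 8 added genes ran from 0.011 to 0.0498 with the block and from 0.0647 to 0.191 without it. Among them, the WT mean of Fasl, 4.39, and the STAT3-deficient mean of Klrc1, 5.74, lay below the level minimum. Ifng, named here after its values were seen, read log2 9.83 and 10.97 under the combination without STAT3, against 5.7 and 5.13 with it. It did not pass the threshold (limma adjusted p = 0.326, or 0.194 with the block).

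Between genotypes under IL-6 alone, the death ligand gene Fasl rose by 3.03 without STAT3 (adjusted p = 0.0275). The transcriptional regulators Id2 and Prdm1 fell by 2.23 (adjusted p = 0.0197) and by 3.05 (adjusted p = 0.0212). That is 1 list gene higher and 2 lower, beside 0.561% and 2.73% of all genes, with a median of 0.19 in the list and -0.03 over all genes. The WT mean of Fasl, 5.81, and the STAT3-deficient mean of Prdm1, 5.45, lay below the level minimum, so these sizes are rough. With the replicate block 3 rose and 5 fell (all genes 2.38% and 9.08%), the chemokines Ccl3 (3.01) and Ccl4 (2.02) being added above and Lamp2, Rab27a and Stxbp2 below. The call of Fasl was lost without WT replicate 1 or 2 or STAT3-deficient replicate 2 (3.06, 3.01 and 2.09, adjusted p = 0.0691 to 0.109) and kept without STAT3-deficient replicate 1 (0.0448). That of Id2 was lost without WT replicate 2 or STAT3-deficient replicate 1 (-1.94 and -1.66, 0.0526 and 0.106, with 0.0284 the lowest without 1 array). That of Prdm1 was lost without WT replicate 1 or STAT3-deficient replicate 1 or 2 (-2.03, -2.81 and -3.3, 0.0513 to 0.112) and kept without WT replicate 2 (0.00133). Over the alternatives other than leaving out 1 array the adjusted p ran from 0.00617 to 0.0354 for Fasl, from 0.00856 to 0.0441 for Id2 and from 0.00943 to 0.0299 for Prdm1.

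Under TGFb and in medium no list gene was called between genotypes in either direction, as over all genes (0% each way in both). At an unadjusted p under 0.05 limma gave 1 list gene of 50 and 89 of all 13007 under TGFb, and 0 and 17 in medium.

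Against medium, WT cells given IL-6 with TGFb had 5 list genes higher and 1 lower, beside 2.14% and 0.853% of all genes, and medians of 0.09 and -0.04. Klre1, 1 of the 5, reached the level minimum only through the WT arrays of the combination. The cathepsin gene Ctsw rose by 5.23 (37.5-fold, adjusted p = 0.000246), Klrc1 by 3.84 (0.0095), Klre1 by 2 (0.0011 with no level minimum), Lamp2 by 1.49 (0.0182) and Rab27a, a GTPase of granule docking, by 1.36 (0.0238). Fasl fell by 4.22 (adjusted p = 0.00432). Its WT mean under the combination, 4.39, and the medium mean of Klrc1, 4.23, lay below the level minimum. Lamp2 and Rab27a lost their calls without WT medium replicate 1 or either WT array of the combination (Lamp2 1.19 to 1.71, adjusted p = 0.0662 to 0.19, and Rab27a 1 to 1.39, 0.133 to 0.241). Klrc1 lost its call without WT medium replicate 1 (3.42, adjusted p = 0.11) or combination replicate 2 (3.04, 0.107), and Klre1 was not tested without either combination array. In the fits without 1 array that kept the call, the lowest adjusted p was 0.0275 for Lamp2, 0.0215 for Rab27a and 0.0229 for Klrc1. Over the alternatives other than leaving out 1 array the adjusted p ran from 0.0017 to 0.0324 for Lamp2, from 0.01 to 0.169 for Rab27a and from 0.000918 to 0.0122 for Klrc1.

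Under TGFb alone Ctsw rose by 4.63 in WT cells (adjusted p = 0.00175), and Cst7, which encodes a cysteine protease inhibitor of cytotoxic granules, fell by 3.84 (0.0355). That is 1 gene each way, beside 0.2% and 0.0231% of all genes. The call of Cst7 was lost without any 1 of the 4 arrays (-4.27 to -3.4, adjusted p = 0.095 to 0.444, against 0.00407 to 0.0418 over the alternatives that leave out no single array). In STAT3-deficient cells Ctsw rose by 4.97 under the combination (adjusted p = 0.001; all genes 0.131% higher, 0.00769% lower) and by 4.89 under TGFb (0.000983; all genes 0.3% and 0.0538%), and no other list gene was called. The TGFb count was 2 without STAT3-deficient TGFb replicate 1, where 1 gene was also lower, and 3 without replicate 2. Ctsw was thus called against medium in both genotypes wherever TGFb was present.

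Under IL-6 alone limma called no list gene in WT cells, beside 0.223% of all genes higher and 0.0615% lower. At an unadjusted p under 0.05 it gave 10 of 50 list genes and 1643 of 13007. With the replicate block Prdm1 (2.96) and Ctsw (2.12) rose and Fasl (-2.8) fell, with 1.21% and 0.469% of all genes called, and without WT IL-6 replicate 2 the list had 3 calls. The WT medium mean of Prdm1, 5.55, and the WT IL-6 mean of Fasl, 5.81, lay below the level minimum. In STAT3-deficient cells none was called (0% of all genes either way), and at an unadjusted p under 0.05 limma gave 0 of 50 and 173 of 13007.

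**Figure D4:**
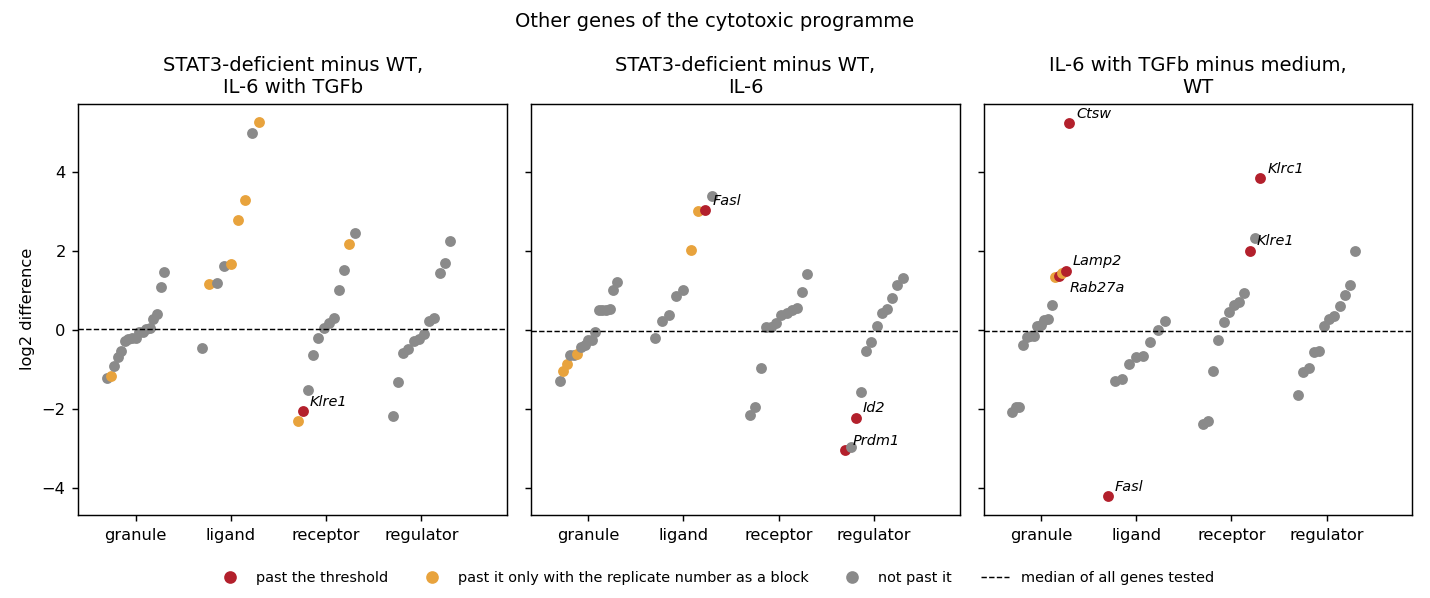
Log2 difference of the 50 tested genes of the list, by role, in 3 comparisons: STAT3-deficient minus WT under IL-6 with TGFb, the same difference with IL-6 alone, and the combination minus medium in WT cells. Points are genes in order of their difference within a role, named where limma called them, with a second colour for genes called with the replicate block alone and a dashed line at the median of all genes. Klre1 lies at -2.07 in the first panel, Fasl at 3.03 in the second, and Ctsw at 5.23 in the panel of WT cells.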

How the data were processed

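The 16 Affymetrix arrays were deposited as 1 table of linear intensity values, made by the authors with RMA, per the submitters' processing notes, with its version not given in the sources used here. Those deposited intensities were whole numbers from 6 to 37243, with array medians of 66 to 73, and log2 was taken with no pseudocount. The number of arrays, 2 per group, limits the precision.

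Of 45101 probe sets, 64 controls and those with several symbols or none were left out, which left 34945 for 18193 genes, and 34741 were matched to RefSeq by Entrez number. Where a gene had several probe sets (9010 genes), the brightest over all arrays was used. The 13007 genes at log2 6 or more on at least 2 arrays were fitted with limma 3.58.1 in R 4.3.3 (a mean per group, 8 residual degrees of freedom, prior 3.27), two-sided, with Benjamini-Hochberg adjustment over all of them. The fit was tested on simulated data. A fold is 2 raised to a difference of log2 means, and every SE is that of the fit.

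The members and lists were chosen with earlier results of these data known, so members have no p-value and no p was adjusted over a list alone. The rule for naming genes beside the members covered Stat3, list genes past the threshold (the 6 with the largest change where more passed) and the 3 genes most like each member by Pearson's r. It also covered cell type markers above log2 8. Outside that rule, list genes called with the replicate block alone, the other NK cell markers, and Il17a, Foxp3, Xist and Ifng were named too.

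Replicate numbers in the labels pair the arrays: deviations from group means correlated in all 28 pairs of groups (r from 0.11 to 0.86, median 0.33 over 13007 genes). The numbers also part sex-linked genes, with Xist at 11.91 to 13.21 on replicate 1 arrays and 6.64 to 7.6 on replicate 2 arrays. Alternatives were the replicate number as a block, no level minimum, a further quantile normalization, the mean of a gene's probe sets, each array left out in turn, and STAT3-deficient TGFb replicate 1 and STAT3-deficient IL-6 with TGFb replicate 1 both left out. Promoter motifs were searched on both strands in Python 3.11.15, and figures were drawn with matplotlib 3.10.9.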

Additional observations from a re-analysis of the deposited data

Results flagged for a closer look

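Nkg7 went opposite ways in the genotypes between medium and IL-6 with TGFb: the difference was -2.6 in WT and 2.21 in STAT3-deficient cells, 4.81 apart on the log2 scale, with each array pair of a genotype going the same way. Klrk1 did so between medium and IL-6, with -0.41 in WT and 1.14 in STAT3-deficient cells, 1.55 apart. Its WT difference, near the level minimum, was smaller than its SE of 0.54, with -0.02 and -0.8 within replicates. Id2, a regulator of lymphocyte differentiation, did so between medium and IL-6 with TGFb, with 0.61 in WT and -0.68 in STAT3-deficient cells, a difference of -1.29. Neither change of Id2 against medium passed the threshold (limma adjusted p = 0.519 and 0.938, or 0.412 and 0.632 with the block). Members and called list genes alone were searched for such opposite changes, so no share over all genes is given. None of these differences between the genotypes was tested, and for the members none could be, since they were chosen with these values known.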

How the results depend on the processing

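The main limits are 2 arrays per group and the doubted arrays. With the replicate block, which the replicate numbers support, list calls went from 1 to 9 (STAT3-deficient minus WT, IL-6 with TGFb), from 3 to 8 (the same, IL-6) and from 0 to 3 (WT, IL-6 minus medium), and every list gene called without the block was called with it. The block moved the counts over all genes from 155 to 322 and from 428 to 1490 between genotypes (the combination, then IL-6 alone). Against medium it moved them in WT cells from 390 to 833 (IL-6 with TGFb), from 37 to 218 (IL-6) and from 29 to 62 (TGFb), and in STAT3-deficient cells from 18 to 38 (IL-6 with TGFb) and from 46 to 196 (TGFb). It changed no other list count by over 1.5 times. The further quantile normalization and the mean of probe sets each gave 4 list calls between genotypes under IL-6 with TGFb, and the mean of probe sets gave 2 for WT IL-6 minus medium and 30 over all genes for STAT3-deficient TGFb minus medium. Without both doubted arrays the counts over all genes were 51 between genotypes under IL-6 with TGFb, 15 for WT IL-6, and 9 and 21 for STAT3-deficient IL-6 with TGFb and TGFb against medium, where the list count was 2 for TGFb.

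Leaving out each array in turn leaves 1 array in a group. Between genotypes under IL-6, every such fit called fewer list genes than the 3 of the full fit. None of those 3 genes kept its call in every such fit. List calls also moved between genotypes under IL-6 with TGFb, in WT cells against medium, and in STAT3-deficient cells under TGFb. Over all genes they ran from 26 to 35 (IL-6 with TGFb), 27 to 527 (IL-6) and 0 to 38 (TGFb) between genotypes, from 87 to 262, 3 to 364 and 6 to 16 in WT cells, and from 5 to 8 (IL-6 with TGFb) and 9 to 247 (TGFb) in STAT3-deficient cells. Fewer arrays enter these fits.

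Of 490 member values under alternatives, 79 had the other sign than the value reported, 10 of them without both doubted arrays. In 9 a difference larger than 1 SD of the spread between arrays turned sign, and 46 others moved by more than that SD. At its other probe set Prf1 turned between genotypes to 0.2 (IL-6 with TGFb), 0 (TGFb) and -0.01 (medium), and against medium to -0.13 (WT, IL-6 with TGFb), -0.31 (WT, TGFb) and -0.3 (STAT3-deficient, TGFb). Gzmb in WT cells against medium ran from -5.66 without WT medium replicate 1 to 0.15 without replicate 2 for IL-6 with TGFb, and from -0.37 without replicate 1 to 5.44 without replicate 2 for IL-6. Gzmk in STAT3-deficient cells ran for TGFb minus medium from -0.15 without TGFb replicate 2 to 0.92 without TGFb replicate 1. The cause was not tested. Of the values of named list genes and Stat3 under alternatives, 130 stayed on their side of the threshold, 25 lost the call and 3 gained it.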
